A study of Macaca mulatta with 4 samples.

Results

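The genes described are 74 rhesus genes for receptors of vascular and lipid mediators, found by symbol among the 21314 rows of a table of RNA-seq counts. They comprise the receptors for sphingosine 1-phosphate, lysophosphatidic acid, endothelin, prostanoids, nucleotides, adenosine, catecholamines, proteases, angiotensin, bradykinin, adrenomedullin, apelin and oestrogen, and the adhesion receptors. Of the 14 families so formed, 2 hold genes that are not G protein coupled receptors. P2X genes encode ATP-gated ion channels, and RAMP genes encode single-pass partners of a receptor. A further 19 symbols of these families stood in the reference tables but paired with no row, among them S1PR4, LPAR4, LPAR6, ADORA2A, ADORA2B, F2RL1, AGTR2, BDKRB1, RAMP1 and RAMP3. They count as not measured here.

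The cells were RF/6A, a rhesus macaque (Macaca mulatta) line derived from ocular choroid and retina and long used as a model of endothelium. All 4 libraries, titled Static1 to Static4, came from 1 purchased lot grown in Dulbecco's modified Eagle medium with 10% heat-inactivated serum, penicillin and streptomycin at 37 °C in 5% CO2. They form 1 group, with no treated or control arm, so levels are described and no test between groups was possible. The labels do not say that the libraries are separate cultures, and the SDs measure only the spread between these 4 samples.

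G protein coupled receptors span the membrane repeatedly and pass the binding of an outside ligand to a heterotrimeric G protein inside the cell. Depending on the G protein, the cell raises or lowers cyclic AMP, releases calcium through phospholipase C beta, or contracts. In vessels, endothelium and the mural cells around it carry different members of 1 family for the same ligand, so that endothelin, for example, acts through EDNRA on smooth muscle and through EDNRB on endothelium. Adhesion receptors bind matrix or a neighbouring cell through long extracellular regions.

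Total estimated counts ran from 20366946 to 20550610 per library, and 3 counts correspond to between 0.135 and 0.185 counts-per-million (CPM, scaled with TMM). Of the endothelial markers, 1 of 9 (PECAM1) reached 1 CPM in every library, against 52.9% of all rows. KDR passed 1 CPM in libraries 1, 3 and 4 (0.432 CPM in library 2), ERG in libraries 1 and 3, and CDH5 in library 2 alone. The other 5 stayed below 1 CPM everywhere, with ROBO4 at 0, and the 9 summed to 5.12 to 8.31 CPM. All 9 fibroblast and mesenchymal markers reached 1 CPM in every library, with a summed level of 40794 to 46212 CPM. Of the pigment epithelial markers, which bear on the chorioretinal label, 3 of 6 reached it and TYR had no count. Blood cell markers reached it in 2 of 8 (CD68 and LYZ), with CD3E and GP9 at 0 and a sum of 15.7 to 18.1 CPM. Glial and neuronal markers reached it in 2 of 6 (SNAP25 and NEFL), with a sum of 38.2 to 48.8 CPM. NEFL alone measured 28.1 to 30.4 CPM. Library 2 stood apart. Ribosomal protein genes held 15.0% of its counts against 6.08% to 6.66% in the others. Fibroblast and mesenchymal markers shifted both ways in library 2, which their sum does not show. FN1 was lowest there (3228 against 12620 to 14908 CPM). COL1A1 (16445 against 8427 to 9600 CPM) and VIM (10605 against 4350 to 5073 CPM) were highest there. Smooth muscle and pericyte markers, of which 6 of 8 reached 1 CPM in every library, summed to 828 CPM there against 325 to 375 CPM. TAGLN alone gave 764 CPM of that sum. ACTA2 (16.4 against 5.28 to 5.61 CPM) and DES (9.44 against 3.32 to 4.97 CPM) were also highest in library 2. MYH11 was highest there by a narrow margin (1.97 against 1.26 to 1.94 CPM), while CSPG4, RGS5 and NOTCH3 were lowest in library 2. Pigment epithelial markers summed to 214 CPM there against 72.2 to 82.0 CPM, of which RDH5 alone gave 211 CPM, while BEST1 and MITF were lowest in library 2. The part of these differences in the receptor values was not tested.

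Of the 74 receptor genes, 26 (35.1%) reached 1 CPM in every library, against 52.9% of all rows and 64.2% of rows with a symbol. Another 8 reached it in some libraries, 27 stayed below it everywhere with at least 1 count, and 13 had no count (17.6%, against 17.7% of all rows). For the 40 genes below 1 CPM everywhere, the upper exact 95% Poisson limit of the pooled level was under 1 CPM. The share of all rows below 1 CPM everywhere was not counted. The median of the 74 genes was -0.10 ± 0.13 log2(CPM + 0.5) (SD, n = 4), against 1.85 ± 0.21 for all rows. CPM is not divided by transcript length, so levels are compared between libraries but not ranked between genes. In a bulk sample, a low level in all cells and a high level in a few of them cannot be told apart.

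**Figure D1:**
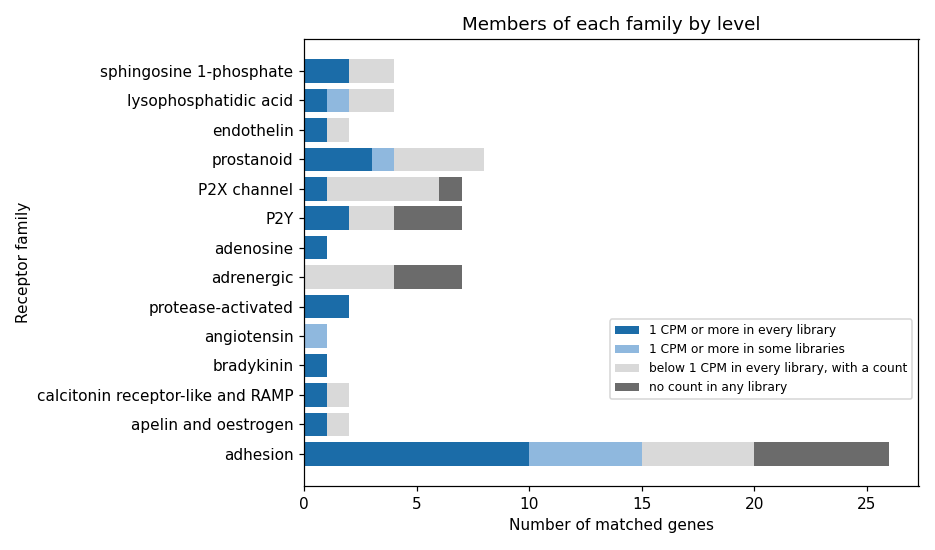
Bars count the matched genes of each receptor family by level: 1 CPM or more in every library, in some libraries, below 1 CPM with a count, or no count. The adhesion family has 10 of 26 genes at 1 CPM in every library, and the adrenergic family has 0 of 7. Over all 74 genes the count is 26 (35.1%), against 52.9% of all rows.

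Sphingosine 1-phosphate acts on endothelium mainly through S1PR1, which stabilises junctions, and on fibroblasts and smooth muscle also through S1PR2 and S1PR3. S1PR3 (ENSMMUG00000043913) measured 19.6, 20.5, 19.5 and 17.95 CPM in libraries 1 to 4, a mean of 19.4 ± 1.07 (SD, n = 4). With TMM scaling it was the steadiest of the 26 genes present throughout, with a coefficient of variation of 5.51%, and library 2 lay within 1.08 times the mean of the others. With plain CPM the spread of S1PR3 was wider, at 19.5 ± 2.27 CPM. On that scale ADGRB2, at 3.30 ± 0.142 CPM, was steadier for its level. S1PR1 (ENSMMUG00000042059) had 8, 2, 5 and 6 counts, or 0.254 CPM pooled over the 4 libraries (exact 95% Poisson limits 0.157 to 0.389). S1PR2 was likewise below 1 CPM in every library, with 7, 4, 7 and 11 counts and 0.351 CPM pooled (0.235 to 0.504). S1PR5, best known from natural killer cells and oligodendrocytes, measured 2.27, 3.70, 1.84 and 2.94 CPM, a mean of 2.69 ± 0.812, with library 2 the highest.

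Lysophosphatidic acid drives migration and contraction of fibroblasts, in large part through LPAR1. LPAR1 (ENSMMUG00000006906) measured 99.5, 50.9, 90.4 and 99.9 CPM, a mean of 85.2 ± 23.3 (SD, n = 4). Library 2 was low, and without it the mean was 96.6 ± 5.32 (n = 3). The other matched receptors of this lipid were near or under the threshold. LPAR2 measured 0.819, 1.48, 0.809 and 0.904 CPM and passed 1 CPM in library 2 alone, while LPAR3 and LPAR5 stayed between 0.270 and 0.925 CPM.

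Of 8 prostanoid receptors, 3 reached 1 CPM in every library, among them both that raise cyclic AMP on binding prostaglandin E. PTGER2 (ENSMMUG00000000023) measured 2.91, 3.27, 2.29 and 2.76 CPM, a mean of 2.81 ± 0.405 (SD, n = 4). PTGER4 (ENSMMUG00000016167) measured 4.73, 2.41, 3.37 and 4.39 CPM, a mean of 3.72 ± 1.052, and its lowest value was in library 2. TBXA2R, the thromboxane receptor of platelets and smooth muscle, measured 1.23, 3.08, 1.30 and 2.31 CPM, a mean of 1.98 ± 0.885, with libraries 2 and 4 above the other pair. PTGIR, the prostacyclin receptor, was below 1 CPM in every library with 11, 8, 9 and 7 counts, or 0.424 CPM pooled (exact 95% Poisson limits 0.295 to 0.590). PTGFR, the receptor of prostaglandin F, had 14, 4, 66 and 14 counts, and reached 1 CPM in library 3 alone at 2.97 CPM. PTGER1, PTGER3 and PTGDR had 12, 1 and 5 counts over the 4 libraries together, and 8 of the PTGER1 counts were in library 2.

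Of the endothelin pair, the receptor typical of mural cells was present. EDNRA (ENSMMUG00000003659), through which endothelin contracts smooth muscle, measured 7.64, 2.34, 10.9 and 9.04 CPM, a mean of 7.48 ± 3.67 (SD, n = 4), or 9.19 ± 1.62 without library 2 (n = 3). EDNRB, which on endothelium releases nitric oxide and clears the peptide, had 1 count in library 3 and none elsewhere (0.0121 CPM pooled, upper exact 95% Poisson limit 0.0675). In libraries 1, 2 and 4, EDNRA had 168, 38 and 200 counts and EDNRB had 0. Transcript lengths were not used here, so no fold between these genes is given.

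AGTR1, the main pressor receptor for angiotensin II, measured 1.32, 0.740, 0.719 and 0.724 CPM and passed 1 CPM in library 1 alone. BDKRB2 (ENSMMUG00000043275), the bradykinin receptor present without injury or inflammation, measured 4.41, 4.81, 5.35 and 4.88 CPM, a mean of 4.86 ± 0.383 (SD, n = 4). With TMM scaling library 2 lay among the others, and the mean of the others was 1.01 times library 2. With plain CPM the spread of BDKRB2 was wider, at 4.91 ± 0.843 CPM.

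CALCRL needs a RAMP partner to reach the cell surface, and with RAMP2 it forms an adrenomedullin receptor of endothelium. CALCRL (ENSMMUG00000009447) measured 6.28, 1.36, 6.47 and 4.25 CPM, a mean of 4.59 ± 2.38 (SD, n = 4), with library 2 the lowest. RAMP2 had 5 counts in library 2 and 0 in libraries 1, 3 and 4 (0.0606 CPM pooled, upper exact 95% Poisson limit 0.141). RAMP1 and RAMP3 matched no row, so whether CALCRL had another partner was not measured. APLNR, the apelin receptor of developing vessels, had 1 count in library 1 and 1 in library 3. GPER1, a membrane receptor that responds to oestrogen, measured 4.28, 6.72, 4.36 and 5.65 CPM, a mean of 5.25 ± 1.17.

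Nucleotide receptors were represented by a few genes. P2RX4, an ATP-gated channel also found in endothelium, measured 6.96, 9.99, 5.57 and 6.33 CPM, a mean of 7.21 ± 1.94 (SD, n = 4), and library 2 was the highest. The other 6 P2X genes were below 1 CPM everywhere, and P2RX7, the channel of macrophages, had 3 counts in library 1 and none in the rest. P2RY1 (ENSMMUG00000031540), an ADP receptor, measured 3.41, 1.97, 3.59 and 2.98 CPM, a mean of 2.99 ± 0.725. P2RY14, which binds UDP-glucose, measured 4.78, 4.503, 6.02 and 5.56 CPM, a mean of 5.22 ± 0.699. P2RY2, the ATP and UTP receptor typical of endothelium, had no count in any library, and neither did P2RY12, the platelet ADP receptor, nor P2RY13. A count of 0 in all 4 libraries allows up to 0.0363 CPM by a floor of 3 counts over the 4 libraries, and up to 0.0447 CPM by the exact 95% Poisson limits given for the other low genes. Of the adenosine receptors, ADORA1, which lowers cyclic AMP, was the 1 that matched a row. It measured 5.00, 2.34, 1.89 and 3.53 CPM, a mean of 3.19 ± 1.39, so that the libraries spread widely without any of them standing alone.

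The matched catecholamine receptors were low throughout, while ADRA1B and ADRA1D matched no row and were not measured. All 7 matched adrenergic genes stayed below 1 CPM in every library, whereas 52.9% of all rows reached that level in every library. ADRA2B, ADRA2C and ADRB3 had no count, as had 17.7% of all rows. ADRB1, the cardiac beta receptor, had 10, 0, 6 and 13 counts, or 0.351 CPM pooled (exact 95% Poisson limits 0.235 to 0.504).

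Protease-activated receptors are opened by cutting of their own outer end. F2R (ENSMMUG00000039522), the main thrombin receptor of fibroblasts and endothelium, measured 82.2, 20.2, 82.0 and 81.0 CPM, a mean of 66.4 ± 30.8 (SD, n = 4). Libraries 1, 3 and 4 agreed to within a coefficient of variation of 0.739%, at 81.7 ± 0.604 CPM (n = 3), which was 4.04 times library 2. From 1806, 1825 and 1792 counts, that spread is less than counting error alone is expected to give. It is therefore no measure of how steady F2R is. F2RL2 (ENSMMUG00000022988), which is also cut by thrombin and in mouse platelets assists another receptor of the family, measured 38.7, 4.32, 44.2 and 40.3 CPM, a mean of 31.9 ± 18.5, and its mean in the other libraries was 9.51 times library 2.

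**Figure D2:**
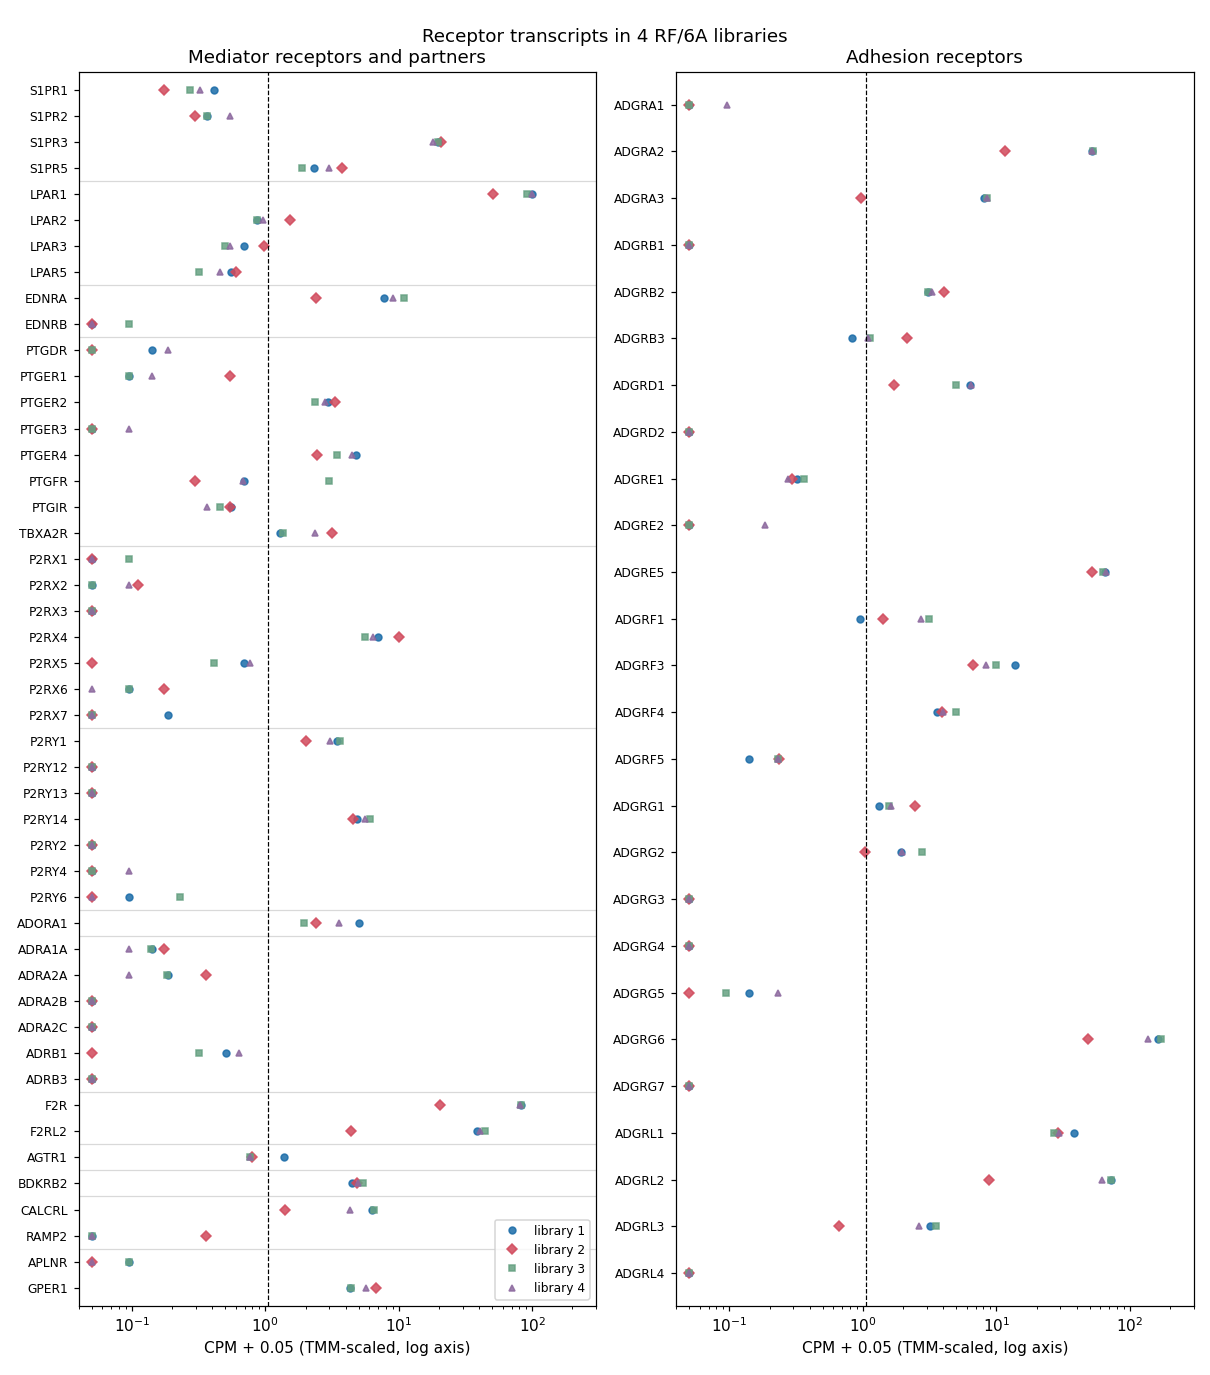
Each point is 1 gene in 1 of the 4 libraries, for 73 of the 74 genes, in CPM + 0.05 on a log axis, with mediator receptors and their partners on the left (families separated by lines), adhesion receptors on the right, and a dashed line at 1 CPM. S1PR3 lies between 17.95 and 20.5 CPM in all libraries, whereas F2R lies at 81.0 to 82.2 CPM except for library 2, at 20.2 CPM.

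Of 26 matched adhesion genes, 10 reached 1 CPM in every library, against 26 of all 74 genes (35.1%) and 52.9% of all rows. ADGRG6 (ENSMMUG00000044958), which binds type IV collagen and laminin and is needed for myelination by Schwann cells, measured 164, 48.2, 171 and 137 CPM, a mean of 130.0 ± 56.4 (SD, n = 4). ADGRE5, a leukocyte antigen also known as CD97, measured 64.6, 51.8, 63.4 and 66.5 CPM, a mean of 61.6 ± 6.66. ADGRE5 shares sequence with ADGRE2, which had 3 counts, so reads could be divided between them. ADGRA2 (ENSMMUG00000003204), a partner of Wnt receptors in the vessels of the brain, measured 52.3, 11.5, 52.5 and 52.1 CPM, a mean of 42.1 ± 20.4. Without library 2 the spread of ADGRA2 was 0.446% of its mean of 52.3 CPM (n = 3). From 1149, 1169 and 1151 counts, that is less than counting error alone is expected to give. It is therefore no measure of how steady ADGRA2 is. ADGRA3, a relative with no established ligand, was likewise lowest in library 2, with 8.01, 0.925, 8.54 and 8.46 CPM.

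Latrophilins, which bind teneurins and other proteins of neighbouring cells, divided by library. ADGRL1 measured 38.4, 28.8, 26.9 and 29.4 CPM, a mean of 30.9 ± 5.11 (SD, n = 4), and library 2 lay among the others. ADGRL2 (ENSMMUG00000002516) measured 71.7, 8.76, 72.6 and 62.0 CPM, a mean of 53.7 ± 30.4, and its mean in the other libraries was 7.85 times library 2. ADGRL3 measured 3.14, 0.617, 3.46 and 2.58 CPM, again lowest in library 2. ADGRL4, a latrophilin relative characteristic of endothelium, had no count in any library. ADGRF5, found in endothelium and in the alveolar epithelium of the lung, had 2, 3, 4 and 4 counts, or 0.157 CPM pooled (exact 95% Poisson limits 0.0838 to 0.269).

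Of the remaining adhesion receptors, 5 were present in every library. ADGRF3, an orphan receptor, measured 13.7, 6.60, 9.84 and 8.32 CPM, a mean of 9.63 ± 3.05 (SD, n = 4), and its neighbour in the family ADGRF4 measured 3.55, 3.89, 4.90 and 3.93 CPM, a mean of 4.07 ± 0.580. ADGRD1 measured 6.32, 1.67, 4.90 and 6.38 CPM, a mean of 4.82 ± 2.21. ADGRB2, of a family named for inhibition of brain angiogenesis, measured 3.003, 4.01, 3.01 and 3.26 CPM, a mean of 3.32 ± 0.475. ADGRG1, which binds type III collagen in the developing brain, measured 1.27, 2.41, 1.53 and 1.58 CPM, a mean of 1.70 ± 0.491. In ADGRB2 and ADGRG1 library 2 was the highest, whereas in ADGRD1 and ADGRF3 it was the lowest. ADGRB3, ADGRF1 and ADGRG2 passed 1 CPM in 3 libraries each, with means of 1.25 ± 0.583, 1.998 ± 1.03 and 1.87 ± 0.716 CPM. ADGRF1 had 20 and 22 counts in libraries 1 and 2 against 68 and 59 in libraries 3 and 4. The other 9 adhesion genes had at most 22 counts each over the 4 libraries, and ADGRB1, ADGRD2, ADGRG3, ADGRG4 and ADGRG7 had none.

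Several receptor genes lie side by side in the order of protein-coding genes of the RefSeq table for assembly T2T-MMU8v2.0. That order leaves out non-coding genes, and 73 of the 74 symbols were found in it. F2RL2 and F2R are neighbours, as are ADGRL1 and ADGRE5, and all 4 genes were present in every library. P2RY12 and P2RY13 are neighbours without a count, and P2RY2, also without a count, lies beside P2RY6, with 5 counts. Other neighbours differed in level. P2RX4, with a mean of 7.21 CPM, lies beside P2RX7, with 3 counts in all. PTGER2, with 2.81 CPM, lies beside PTGDR, with 5 counts, and P2RY14, with 5.22 CPM, is separated by 1 gene from P2RY13 and then P2RY12, both without a count. ADGRL2, with 53.7 CPM, is separated by 1 gene from ADGRL4, without a count, and ADGRG1, with 1.70 CPM, lies beside ADGRG5, with 7 counts, and 1 gene from ADGRG3, without a count. ADGRF1, with 1.998 CPM, lies beside ADGRF5, with 13 counts.

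Library 2 held a smaller share of receptor counts. The 74 genes took 0.0256% of its counts against 0.0740% to 0.0792% in libraries 1, 3 and 4. This share is of unscaled counts, and the genes with the most counts weigh most in it. ADGRG6 alone had 3595, 781, 3804 and 3038 of the 16137, 5235, 16168 and 15213 receptor counts in libraries 1 to 4. Of the 33 genes whose mean reached 1 CPM, 18 (54.5%) were lower in library 2 than in each of the others, against 48.0% of all rows at that mean, and 10 (30.3%) were higher than in each, against 43.8%. In 8 genes (24.2%, against 12.7% of all rows) the mean of the others was more than 4 times library 2, namely F2RL2, ADGRA3, ADGRL2, PTGFR, ADGRL3, ADGRA2, CALCRL and F2R. CALCRL (4.18) and F2R (4.04) were just past that fold and EDNRA (3.92) just under it, and PTGFR passed it through its value in library 3. ADGRB3 alone was more than 2 times the mean of the others in library 2 (3.03%, against 20.5% of all rows). The median difference of library 2 from the others was -0.44 log2 units for the 33 genes and -0.07 for all rows.

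These counts move with the scaling. With plain CPM, the median over all rows shifted to -0.49 log2 units and that of the 33 genes to -0.77. On that scale 24 of 32 genes with a mean of 1 CPM (75.0%) were lower in library 2 than in each other library, against 59.9% of all rows, and 3 (9.38%) were higher, against 31.4%. Under it 11 of 32 (34.4%) were past the fold of 4, against 18.2% of all rows, and 0 of 32 past the fold of 2 upward, against 10.3%. The direction relative to the other libraries was the same under both scalings for F2RL2, ADGRL2, ADGRA3, ADGRA2 and F2R, which lay lower, and for ADGRB3, TBXA2R and P2RX4, which lay higher. It turned for S1PR3, PTGER2 and ADGRB2, which lay slightly higher with TMM and slightly lower with plain CPM.

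**Figure D3:**
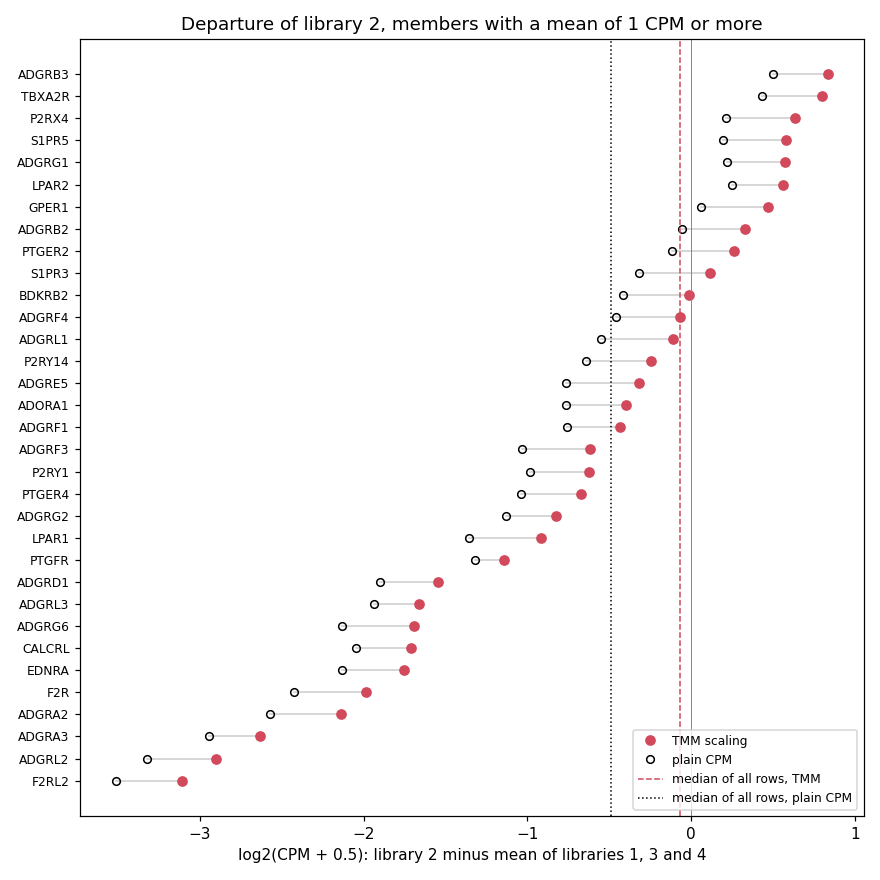
For the 33 receptor genes with a mean of 1 CPM or more, points give log2(CPM + 0.5) in library 2 minus the mean of libraries 1, 3 and 4, with TMM scaling (filled) and plain CPM (open), and vertical lines give the median of all rows under each. F2RL2 lies lowest at -3.11 with TMM, ADGRB3 lies highest at 0.83, and the median of all rows is -0.07 with TMM and -0.49 with plain CPM.

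Shares within a pair of receptors do not depend on scaling, and transcript length cancels when they are compared between libraries. The 8 pairs shown were chosen after the levels were seen, and no test was made on them. PTGER2 gave 38.1%, 40.5% and 38.6% of the PTGER2 and PTGER4 counts in libraries 1, 3 and 4 and 57.6% in library 2 (exact Clopper-Pearson 95% limits 46.9% to 67.9%). ADGRL1 gave 34.9%, 27.0% and 32.1% of the counts of ADGRL1 and ADGRL2, against 76.7% in library 2 (73.1% to 80.0%). F2R gave 68.0%, 65.0% and 66.8% of the counts of F2R and F2RL2, against 82.4% (78.3% to 86.0%). In these pairs the library 2 share lay above all of the others, and in PTGER2 with PTGER4 its limits overlapped those of library 3. For S1PR3 with S1PR5, library 2 at 84.7% (80.8% to 88.1%) overlapped library 1 at 89.6% (86.5% to 92.2%) and library 4 at 85.9% (82.4% to 89.0%), and library 3 lay at 91.4%. For P2RY1 with P2RY14 all 4 libraries overlapped, between 30.5% and 41.7%.

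**Figure D4:**
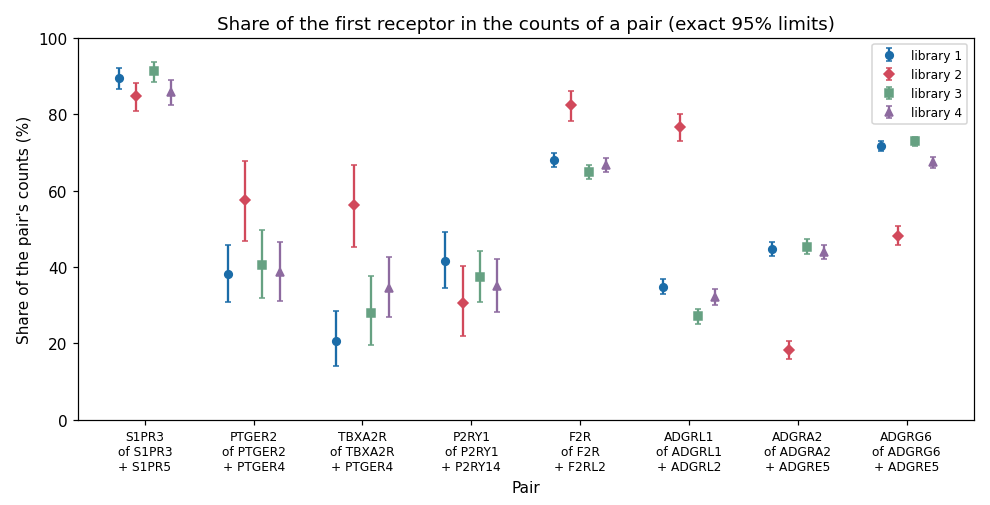
Points give the share of the first receptor in the counts of each of 8 pairs, in percent, in each library, with exact 95% limits that cover counting error only. Library 2 stands above the others for ADGRL1 with ADGRL2 (76.7%) and below them for ADGRA2 with ADGRE5 (18.1% against 43.9% to 45.3%) and for ADGRG6 with ADGRE5 (48.2% against 67.4% to 72.9%).

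Of 54 listed genes that make or remove the ligands, 41 matched a row. Of these, 20 (48.8%) reached 1 CPM in every library, a share close to the 52.9% of all rows, with a summed level of 753 CPM in library 2 and 955 to 988 CPM in the others. SPHK1, which makes sphingosine 1-phosphate, measured 1.18, 1.48, 1.12 and 1.04 CPM, and ENPP2, the secreted enzyme that makes lysophosphatidic acid, measured 4.91, 3.27, 3.23 and 4.43 CPM. PTGS2, the inducible cyclooxygenase, measured 7.78, 4.26, 8.18 and 5.74 CPM, and PTGES3, a cochaperone also described as a prostaglandin E synthase, 296, 179.9, 306 and 294 CPM. PTGIS, the prostacyclin synthase, measured 70.4, 15.4, 71.5 and 70.6 CPM, and PTGES2 measured 29.9, 64.6, 29.4 and 33.4 CPM. TBXAS1, the thromboxane synthase, and the prostaglandin transporter gene SLCO2A1 had no count.

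The same list holds genes for peptide and nucleotide ligands. ADM, which encodes adrenomedullin, measured 102, 147, 98.7 and 130.25 CPM, beside the near absence of counts for RAMP2. MME, a peptidase that degrades endothelins and bradykinin, measured 165, 62.1, 172 and 159 CPM, and was lowest in library 2. AGT, the angiotensin precursor, had 1 count in library 2 and 1 in library 3. EDN1 matched no row, and EDN2 and EDN3 had no count. NT5E, which makes adenosine from AMP outside the cell, measured 13.4, 8.70, 14.2 and 11.6 CPM.

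**Figure D5:**
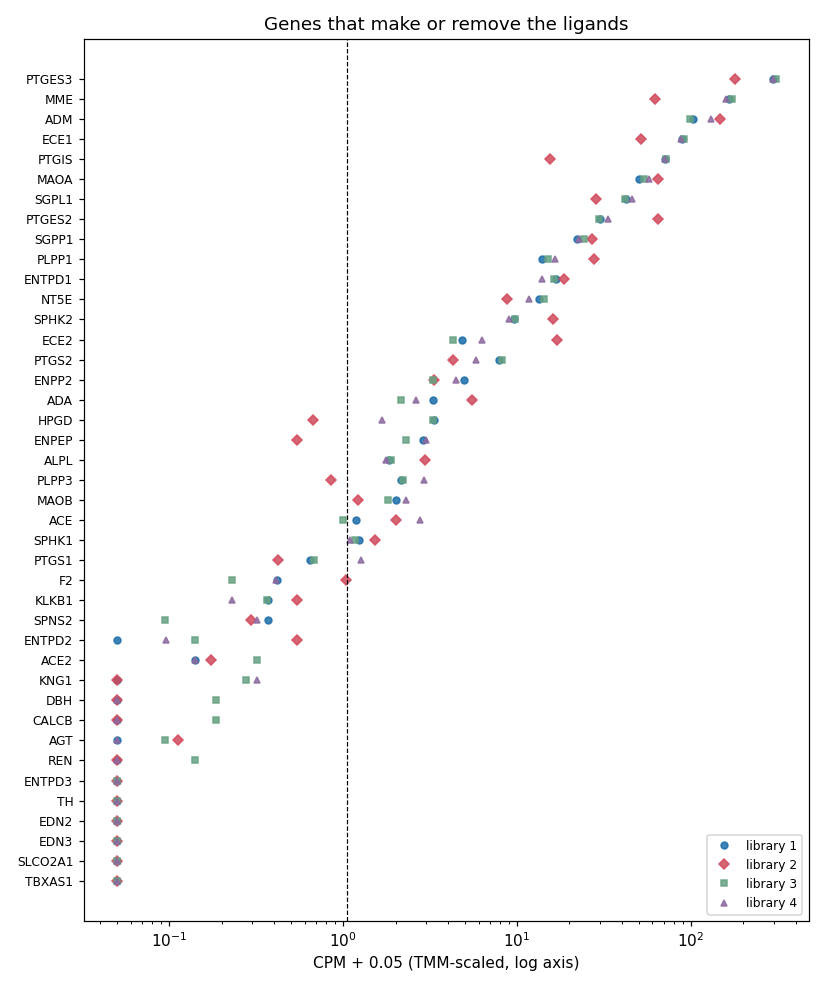
Each point is 1 of the 41 matched ligand-making or ligand-removing genes in 1 library, in CPM + 0.05 on a log axis, ordered by mean, with a dashed line at 1 CPM. ADM lies between 98.7 and 147 CPM, and the 6 genes without a count lie at the left edge.

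Signal transducers act downstream of the receptors. Of the matched genes, 9 of 11 G protein beta and gamma subunits (81.8%) reached 1 CPM in every library, against 52.9% of all rows and 64.2% of rows with a symbol. For adenylyl cyclases and phospholipases C beta the count was 8 of 13 (61.5%), for receptor kinases and arrestins 5 of 10 (50.0%), and for RGS proteins, which end G protein signals, 8 of 15 (53.3%), all near those background shares. GNB1 measured 141, 164, 141 and 160.4 CPM, and GNG12 measured 127, 80.8, 137 and 130.25 CPM. GNG11, a gamma subunit common in endothelium and fibroblasts, measured 161, 435, 160.1 and 163 CPM, with library 2 far above.

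PLCB1, which releases calcium on signals from Gq-coupled receptors, measured 90.5, 8.94, 104 and 70.9 CPM, and PLCB3, which does the same, 76.2, 127, 75.5 and 84.2 CPM, so the pair went opposite ways in library 2. ADCY6, an adenylyl cyclase, measured 77.8, 56.1, 76.8 and 72.8 CPM.

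Regulators that switch receptors off included steady and variable genes. GRK2, the kinase that marks activated receptors for arrestins, measured 41.4, 46.4, 39.4 and 42.6 CPM, a mean of 42.5 ± 2.94 (SD, n = 4). GRK6, of the same family, measured 11.01, 11.6, 10.5 and 12.03 CPM. ARRB2, a beta-arrestin, measured 26.1, 49.2, 26.2 and 28.0 CPM and was highest in library 2. Among RGS proteins, RGS10 measured 13.4, 45.2, 11.5 and 13.5 CPM, RGS12 12.3, 18.3, 12.04 and 14.6 CPM, and RGS7 12.6, 8.51, 12.3 and 11.1 CPM.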

How the data were processed

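RNA from 4 RF/6A libraries was sequenced on a BGISEQ-500, per the labels. The authors deposited whole-number estimated counts for each Ensembl gene ID of the rhesus. Per the submitters' processing notes the tools included Salmon and DESeq2, with no version or role. The build, annotation and strandedness used are not stated in these sources. Salmon shares ambiguous reads between similar genes, an error the counting limits do not cover. Of the 21314 rows, 14654 had a symbol in a table of gene IDs. Scaling used the trimmed mean of M-values (TMM, edgeR 4.0.16, R 4.3.3), and values are given as CPM. DESeq2 1.42.0 size factors and plain CPM were alternatives. A gene counted as present at 1 CPM in every library. Dixon's gap test (critical value 0.829) looked for libraries that stand apart. The code was tested on simulated data, in which far fewer genes were changed in library 2 than stood apart there in the real data. That test does not show how the scaling and the gap test behave under so broad a shift. Poisson and binomial intervals and floors cover counting error only. No 2 libraries agreed within sampling noise (lowest chi-square per degree of freedom 12.3).

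The members and lists were chosen with earlier results of these data known. Values in all 4 libraries are given for genes at 1 CPM in every library and for 17 fixed receptors, of which ADORA2A matched no row. For each pathway list the 3 genes with the most CPM are given, beside 7 fixed names. Some of the named genes and 1 list are not reported here. Other genes named, and the pairs, were chosen after their values were seen. Planned tests of receptor pairs per coding length were not run, because no transcript lengths were used here.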

Additional observations from a re-analysis of the deposited data

Results flagged for a closer look

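Of 63 values put to Dixon's gap test, 19 had 1 library far from the rest. About 1 in 20 would by chance, but 36.9% of all rows with a mean of 1 CPM did in these libraries. The 63 values include genes below that mean. Among them RAMP2 and EDNRB had counts in 1 library only, so the test had to flag them. The far library was library 2 in 16 cases, low in 11 and high in 5, and cases with a common library are not independent.

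Library 2 was the low one, in CPM, for LPAR1 (50.9), F2R (20.2), F2RL2 (4.32), ADGRA2 (11.5), ADGRA3 (0.925) and ADGRL2 (8.76), and among pathway genes for MME (62.1), PTGES3 (179.9), PLCB1 (8.94) and GNG12 (80.8). It was also low for the share of all counts held by the receptor genes (0.0256%). It was the high one for LPAR2 (1.48) and RAMP2 (0.308, from 5 counts), and for ARRB2 (49.2), GNG11 (435) and RGS10 (45.2). Of the 33 receptor genes with a mean of 1 CPM, 7 had a library apart (21.2%), against 36.9% of all rows at that mean. Library 2 was low in 6 (18.2%, against 21.5%) and high in 1 (3.03%, against 14.7%).

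Other libraries stood apart in 3 values, all low in counts. AGTR1 was high in library 1 (1.32 CPM, 29 counts), ADGRF5 low in library 1 (0.0910 CPM, 2 counts) and EDNRB high in library 3 (0.0449 CPM, 1 count).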

How the results depend on the processing

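The count of 26 receptor genes at 1 CPM in every library stayed 26 with plain CPM, with DESeq2 size factors and with filterByExpr (33 of the 74 genes pass it), and was 33 at 0.5 CPM or by the mean, 19 at 2 CPM, and between 26 and 29 when each library was left out. The 3 genes gained without library 2 were ADGRA3, ADGRG2 and ADGRL3, and the share of all rows was then 56.4%. The median of the 74 genes ranged from -0.16 to -0.03 log2 units when each library was left out. It was -0.92 with a pseudocount of 0.1, 0.52 with 1, and 2.33 over the genes that pass filterByExpr; these follow from the pseudocount and from dropping low genes. Genes with 1 library apart numbered 7, 9 with plain CPM, 8 with DESeq2 size factors and 7 on unlogged CPM. Genes higher in library 2 than in each other library fell from 10 to 3 with plain CPM, whose construction gives library 2 a larger divisor, and this alternative was chosen after seeing the data. Of 35 receptor levels, 0 moved by more than their SD with another scaling. Without library 2, 3 did (ADGRE5 to 70.04, BDKRB2 to 5.27 and S1PR3 to 20.5 CPM, after scaling again). Leaving out a library cannot by itself move a mean past an SD that includes that library. This count therefore does not show which levels depend on library 2. F2R went from 66.4 ± 30.8 to 88.3 CPM without it, and F2RL2 from 31.9 ± 18.5 to 44.4 CPM. Both were counted as not moved. Tests of fixed pairs per coding length, with all their alternatives, were not run. No paired analysis was possible because there is 1 group. At this depth a gene with no count can be bounded only at 0.0363 CPM (a floor of 3 counts) or 0.0447 CPM (exact 95% Poisson limit).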
